A study of Mus musculus with 19 samples.

Results

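Mouse induced pluripotent stem cells, returned from fibroblasts to a state that can form all tissues, were compared between 4 lines that are db/db at the leptin receptor gene Lepr and 4 wild-type control lines. This comparison took 15 of the study's 19 libraries, 8 of db/db lines and 7 of control lines, and duplicate libraries of a line were summed. The db/db lines were adb_db5, bdb_db5, adb_db7 and bdb_db7, and the control lines were aB6_A5 (1 library), bB6_A5, aB6_B1 and bB6_B1. Each name joins a first letter to a shared name, db5 or db7 for db/db and A5 or B1 for control, and what the letters stand for was not given in the sources used here. All lines were made from fibroblasts of embryos at embryonic day 14.5, bred from OB-Rdb/+ parents and reprogrammed with the STEMCCA lentivirus carrying Oct4, Sox2, Klf4 and cMyc, so cells of both groups had received that vector. Corrected db/db lines (2 lines, 4 libraries) entered the fit to share its estimate of the spread. Poly(A) libraries held 27333914 to 41203703 estimated counts each (median 35191744).

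The leptin receptor is a cytokine receptor that signals through the kinase JAK2 and the transcription factor STAT3. The db allele disrupts the long form of the receptor, which carries most of this signalling. In mouse pluripotent cells STAT3 is best known as the mediator of the cytokine LIF, which holds the cells in an undifferentiated state. The study's title names protein synthesis pathways and neuronal differentiation, so genes of neurons and of metabolism are described beside the genes that set the groups apart.

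Many genes passed a test between the groups over lines, but lines that share a name were near copies of each other. Levels are CPM, counts relative to each line's total after TMM scaling, except that summed levels of marker lists are without TMM scaling. Values of single lines are given for adb_db5, bdb_db5, adb_db7 and bdb_db7 and then for aB6_A5, bB6_A5, aB6_B1 and bB6_B1. Of 19700 genes tested with edgeR's quasi-likelihood test and Benjamini-Hochberg adjustment, 3332 (16.9%) passed a threshold of 0.05, of which 1460 (7.41%) rose and 1872 (9.5%) fell in db/db lines. The 4 lines of each group did not overlap in 4595 genes (23.3%), with db/db lines higher in 2196 (11.1%) and lower in 2399 (12.2%). With near copies in each group this is in effect 2 names against 2. Such names often separate without a group difference, so this count alone does not show one. For 615 genes the gap between the groups exceeded the range of lines within each group. The biological coefficient of variation was 2.16% to 10.1% between lines that share a name, 17.5% to 20% between names of a group and 16.2% to 27.9% between names of different groups. When the shared name was the unit instead of the line (2 against 2), 6 genes (0.0305%) were called by edgeR, and 1970 genes (10%) had an unadjusted p under 0.05. P-values at the level of lines measure the spread among lines of which several are near copies, and are too small for that reason.

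The 6 genes called with shared names as the unit were the noncoding transcript AA465934 and 5 processed pseudogenes, which are copies of a messenger RNA pasted back into the genome. AA465934 (ENSMUSG00000093483, GRCm38 chromosome 11, 83291699 to 83294632, forward strand) was at 9.81, 11.3, 11.3 and 11.4 CPM in db/db lines and at 0.943, 0.624, 0.561 and 0.798 CPM in control lines. Every db/db line lay above every control line by a wide margin (log2 3.92 ± 0.16 SE, edgeR adjusted p = 1.8e-06 over lines and 0.036 over shared names).

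Gm4322, which resembles Bex4, Tdgf1-ps1, which resembles the Nodal co-receptor gene Tdgf1 (Cripto), Gm13456, which resembles the elongation factor gene Eef1a1, and Gm6969, which resembles Cox7a2l, were lower in every db/db line than in any control line. Tdgf1-ps1 was at 0.156, 0.0928, 0.220 and 0.0938 CPM in db/db lines and at 20.8, 20.5, 24 and 23.5 CPM in control lines. Gm4322 was at 0.0142 to 0.0338 CPM in db/db lines and 17.1 CPM or more in control lines, and Gm6969 at 0.0425 to 0.170 CPM in db/db lines and 9.85 to 11.3 CPM in control lines. Gm13456 was at 1.34 to 1.58 CPM in db/db lines and 37.5 to 52.1 CPM in control lines. The fifth, Gm9855, a copy of the thymine DNA glycosylase gene Tdg, went the other way, at 41.3, 41.4, 21.2 and 20.8 CPM in db/db lines and 0.273, 0.104, 0.158 and 0.0713 CPM in control lines. For all 5 the lines of the groups stood far apart, with edgeR adjusted p-values of 0.0043 to 0.036 over shared names.

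These pseudogenes differ from their coding genes at few bases, and reads in the shared stretches can be assigned to either. Stretches of 80 bases are shown for Tdgf1-ps1, Gm9855 and Gm4322 with the matching stretch of the coding sequence, 5′ to 3′ on the transcribed strand, chosen as the stretch with the most differences. Capitals mark the bases that differ between the pseudogene and its coding gene, and the sequences are those of GENCODE M21 transcripts on GRCm38. Tdgf1-ps1 lies at chr16:3730894-3730973 (forward strand), Gm9855 at chr10:42054206-42054285 (reverse strand) and Gm4322 at chr1:150269182-150269261 (reverse strand). Tdgf1 lies on chromosome 9, Tdg on chromosome 10 and Bex4 on the X chromosome.
Tdgf1-ps1: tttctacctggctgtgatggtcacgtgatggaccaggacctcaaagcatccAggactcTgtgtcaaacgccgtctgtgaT
Tdgf1: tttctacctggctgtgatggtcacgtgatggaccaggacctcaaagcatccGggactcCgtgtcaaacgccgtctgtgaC
Gm9855: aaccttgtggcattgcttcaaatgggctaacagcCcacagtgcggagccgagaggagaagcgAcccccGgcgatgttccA
Tdg: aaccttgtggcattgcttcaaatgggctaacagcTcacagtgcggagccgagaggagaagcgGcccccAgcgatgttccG
Gm4322: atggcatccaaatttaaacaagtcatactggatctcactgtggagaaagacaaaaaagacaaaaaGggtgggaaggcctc
Bex4: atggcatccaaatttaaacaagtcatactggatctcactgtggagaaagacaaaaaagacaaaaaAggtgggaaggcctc
Even these stretches differ at only 3 bases for Tdgf1-ps1, 4 for Gm9855 and 1 for Gm4322. Over their aligned lengths the identity was 98.8% for Tdgf1-ps1, 99.2% for Gm9855, 99.3% for Gm4322, 98.6% for Gm13456 and 98.0% for Gm6969.

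**Figure D1:**
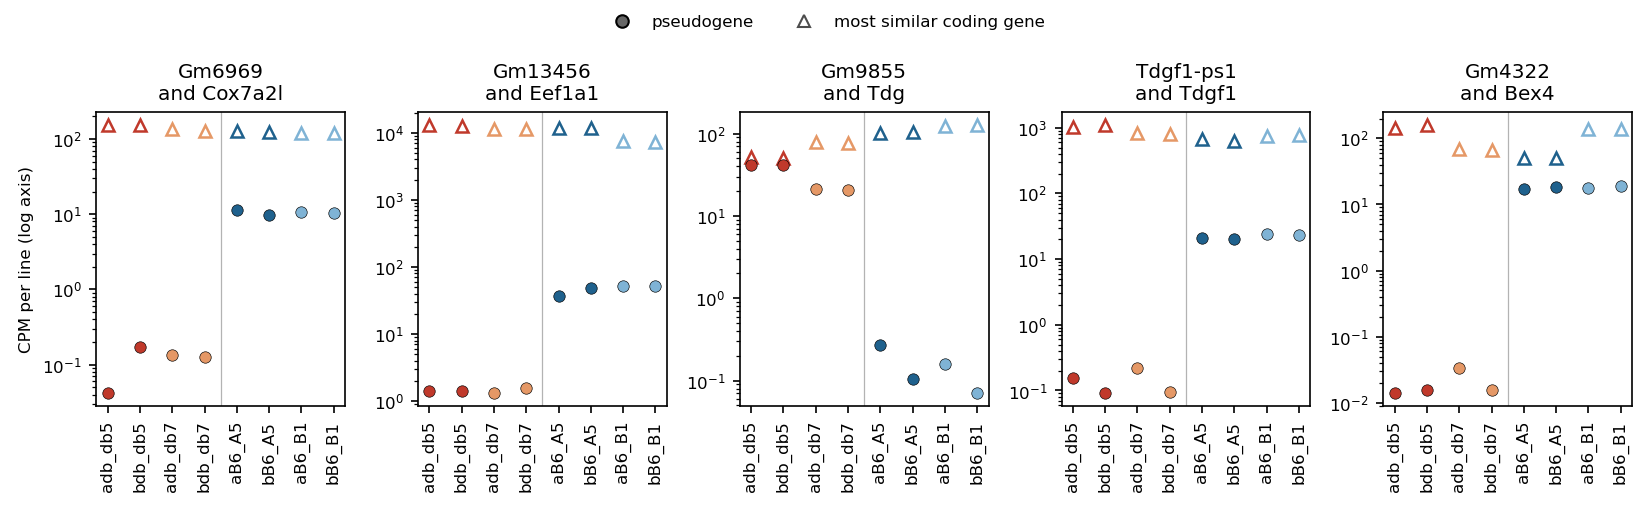
Level of 5 processed pseudogenes (circles) and of the coding gene each resembles most (open triangles) in every line, in CPM on a log axis, with db/db lines left of the grey line and control lines right of it. Gm9855 is over 20 CPM in db/db lines and under 1 CPM in control lines, and the other pseudogenes are lower in db/db lines than in control lines.

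Pseudogenes made up most of the widest gaps. The gap of a gene is the distance, on the log2 CPM scale with a prior count of 2, between the lowest line of the higher group and the highest line of the lower group. Of 13 genes with a gap of at least 8-fold, 11 were annotated pseudogenes (84.6%), against 1362 of all 19700 genes tested (6.91%). Of 29 genes with a gap of at least 4-fold they were 13 (44.8%), and of 221 with a gap of at least 2-fold they were 34 (15.4%). Of the 11, 8 were lower in db/db lines and 3 were higher, namely Gm9855, Tdg-ps and BC002163. BC002163, on chromosome 16, resembles the complex I subunit gene Ndufs5 at 99.4% and was at 26.3, 26.1, 13.1 and 10 CPM in db/db lines, against 0.0993, 0.119, 0.0288 and 0 CPM in control lines.

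For Tdg and Ndufs5, counted alone, the coding gene fell while its pseudogenes rose. Tdg, which removes thymine and oxidised methylcytosine from DNA, was at 51.4, 50.9, 79.7 and 78.1 CPM in db/db lines and at 103, 106, 123 and 126 CPM in control lines (log2 -0.82 ± 0.16, edgeR adjusted p = 0.0081). With the counts of Gm9855 and Tdg-ps added, Tdg stood at 104, 104, 106 and 104 CPM in db/db lines and 104, 106, 124 and 126 CPM in control lines, and the call ended (-0.14 ± 0.07, edgeR adjusted p = 0.19). Ndufs5 was at 13.6, 13.9, 29.6 and 25.9 CPM in db/db lines and at 40.0, 41.8, 40.4 and 44.1 CPM in control lines (-1.0 ± 0.23, edgeR adjusted p = 0.018). With BC002163 added, Ndufs5 stood at 39.9, 39.9, 42.7 and 36.0 CPM in db/db lines and 40.1, 41.9, 40.5 and 44.1 CPM in control lines (-0.07 ± 0.06, edgeR adjusted p = 0.47). The falls of Tdg and Ndufs5 are therefore uncertain. Of the other 6 coding genes treated in this way, Tdgf1 (0.42 alone, 0.37 with its pseudogene), Tent2 (0.28 and 0.24) and Tma7 (0.42 and 0.39) kept their calls, while Bex4, Cox7a2l and Eef1a1 passed edgeR's test in neither form. Counted alone, these 6 genes had a positive log2 change, while their pseudogenes were lower in db/db lines. The addition of pseudogene counts was chosen after the values were seen.

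Among named genes, the rises with the widest gaps were in Ina, Wdfy1 and Stard9 after AA465934. Ina, which encodes the neurofilament protein alpha-internexin, was at 24.1, 23.8, 30.4 and 28.7 CPM in db/db lines and 8.32, 7.50, 6.97 and 6.94 CPM in control lines (log2 1.85 ± 0.11, edgeR adjusted p = 1.3e-05). Wdfy1, an endosomal adaptor of Toll-like receptor signalling, was at 29.8, 29.3, 31.3 and 35.9 CPM in db/db lines and 9.91, 10.3, 7.82 and 7.67 CPM in control lines (1.83 ± 0.12, edgeR adjusted p = 2.3e-05). Lines within a group lay close together for both genes, and the gap between the groups exceeded either range. Stard9, a kinesin of mitotic cells, varied more, at 3.71, 3.63, 7.49 and 10.7 CPM in db/db lines and 1.29, 1.11, 0.819 and 0.841 CPM in control lines (2.66 ± 0.37, edgeR adjusted p = 0.0016).

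Tmeff1 and Cavin4 are neighbours on the forward strand of chromosome 4, Tmeff1 at 48585174 to 48663131 and Cavin4 at 48663514 to 48673502, and both rose. Tmeff1 encodes a transmembrane protein with follistatin-like and EGF-like domains that inhibits Nodal signalling in Xenopus. It was at 167, 168, 169 and 171 CPM in db/db lines and at 61.7, 60.9, 49.8 and 50.3 CPM in control lines (log2 1.60 ± 0.08, edgeR adjusted p = 5.4e-06). The db/db lines of both names were almost level, and none came near a control line. Cavin4, a coat protein of caveolae, was at 6.67, 6.15, 6.92 and 6.90 CPM in db/db lines and 2.33, 2.32, 1.80 and 1.91 CPM in control lines (1.67 ± 0.12, edgeR adjusted p = 4.5e-05).

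Abundant transcripts with roles in the cytoskeleton and in metabolism also rose in every db/db line. Tmsb4x, on the X chromosome, encodes thymosin beta 4, which binds actin monomers, and was at 819, 900, 715 and 677 CPM in db/db lines and at 289, 285, 267 and 278 CPM in control lines (log2 1.48 ± 0.09, edgeR adjusted p = 1.3e-05). Fabp3, a fatty acid-binding protein encoded on chromosome 4, was at 126, 132, 201 and 185 CPM in db/db lines and at 48.7, 48.9, 55.4 and 53.8 CPM in control lines (1.64 ± 0.15, edgeR adjusted p = 0.00015). Hsd17b10, on the X chromosome, encodes a mitochondrial dehydrogenase that is also a subunit of mitochondrial RNase P. It was at 83.2, 79.9, 89.1 and 80.5 CPM in db/db lines and 35.9, 35.7, 38.7 and 39.1 CPM in control lines (1.16 ± 0.06, edgeR adjusted p = 6.6e-06). All 3 genes had narrower ranges within the groups than the gap between them.

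The other 7 of the 15 leading rises were the noncoding AC174800.1 (log2 2.01 ± 0.20), Obox6 of the oocyte homeobox family (2.30 ± 0.61), the adaptor of tyrosine kinases Dok2 (1.84 ± 0.30), the cell polarity scaffold Patj (1.79 ± 0.28), the iron exporter Slc40a1 (2.16 ± 0.37), and mt-Nd3, a complex I subunit encoded by the mitochondrial genome (1.80 ± 0.26), with AA465934 described above. In Obox6, Dok2, Patj, Slc40a1 and mt-Nd3 the control lines of A5 stood above those of B1, and the range of the control group exceeded the gap. Obox6 showed this most, at 27, 27.3, 29.9 and 28.6 CPM in db/db lines and at 10.7, 9.79, 1.5 and 1.28 CPM in control lines, and its call ended without line adb_db7, bdb_db7 or aB6_B1, without both db5 or both db7 lines, and when the corrected lines were left out of the fit. Near copies exist among Obox genes, so its level is uncertain. The 6 predicted genes and pseudogenes with gaps as wide were not named by this rule. Coding genes under 5 CPM were also left out, among them Prss45 with a gap of 2.58, against 1.52 for Ina.

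**Figure D2:**
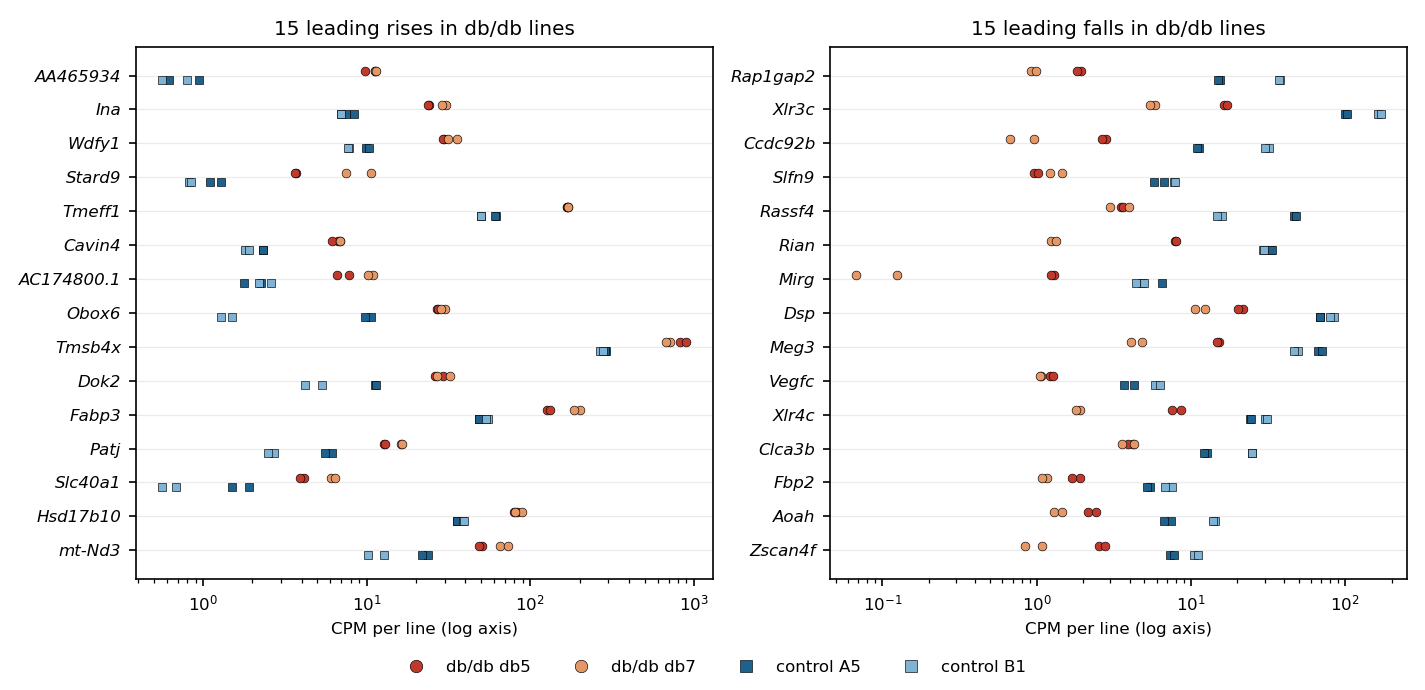
CPM per line on a log axis for the 15 named rises (left) and the 15 named falls (right) with the widest gaps. Each gene averaged at least 5 CPM in the higher group. Circles are db/db lines and squares are control lines, coloured by shared name, and in no row do circles and squares overlap, as the choice of genes requires.

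The falls with the widest gaps were led by Rap1gap2, Xlr3c, Ccdc92b and Slfn9. Rap1gap2, which switches off the small GTPase Rap1, was at 1.95, 1.82, 0.913 and 0.985 CPM in db/db lines and at 15.5, 14.9, 37.5 and 37.1 CPM in control lines (log2 -4.20 ± 0.41, edgeR adjusted p = 0.00027). Its neighbour on chromosome 11, Ccdc92b, fell in the same lines to 0.673 to 2.82 CPM, against 11 to 32 CPM in control lines (-3.56 ± 0.54, edgeR adjusted p = 0.0028). Rap1gap2 spans 74383356 to 74610915 on the reverse strand and Ccdc92b 74619605 to 74641516 on the forward strand. In both genes db5 lines stood above db7 lines and B1 lines above A5 lines.

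Slfn9, of the Schlafen family, lies on the same chromosome as AA465934 (82978390 to 82991830) and moved the other way. It was at 0.963, 1.02, 1.22 and 1.47 CPM in db/db lines and 6.70, 5.78, 7.78 and 7.84 CPM in control lines (log2 -2.59 ± 0.17, edgeR adjusted p = 2.6e-05). Rassf4, of the Ras association domain family, was at 3.51, 3.65, 2.98 and 3.94 CPM in db/db lines and at 46.3, 47.9, 15.9 and 14.7 CPM in control lines (-3.14 ± 0.40, edgeR adjusted p = 0.0011). The db/db lines were alike and the control names differed in Rassf4, while Slfn9 was even within both groups.

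Genes of cell junctions, growth factors and enzymes were among the falls. Dsp, which encodes the desmosome protein desmoplakin, was at 21.7, 20.2, 10.7 and 12.4 CPM in db/db lines and 68.9, 68.8, 85.2 and 80 CPM in control lines (log2 -2.22 ± 0.22, edgeR adjusted p = 0.00027). Vegfc, a growth factor of lymphatic vessels, was at 1.22, 1.27, 1.07 and 1.05 CPM in db/db lines and 3.67, 4.29, 5.88 and 6.33 CPM in control lines (-2.13 ± 0.19, edgeR adjusted p = 0.00015). Dsp and Vegfc separated the groups by more than the range of lines in either of them. The same held for Fbp2, the muscle form of the gluconeogenic fructose bisphosphatase (-2.09 ± 0.20), for Aoah, an enzyme that inactivates bacterial lipopolysaccharide (-2.53 ± 0.31), for Clca3b, of the family of chloride channel accessory proteins (-2.23 ± 0.25), and for Xlr3c.

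Meg3, Rian and Mirg, imprinted noncoding RNAs of a cluster on chromosome 12, fell together but unevenly. Rian was at 7.89, 7.95, 1.23 and 1.33 CPM in db/db lines and 32.8, 33.5, 29.5 and 29.7 CPM in control lines. The db7 lines lay far below the db5 lines, and all db/db lines lay below all control lines, which were level. The range among db/db lines was wider than the gap between the groups for Rian, Mirg and Meg3, and Mirg lost its call without both B1 lines. The last of the 15 falls was Zscan4f of the early embryo (-2.33 ± 0.36), whose family has near copies. The rule passed over 9 predicted genes and pseudogenes with gaps as wide. It also passed over coding genes under 5 CPM, among them Adcy2 with a gap of -2.97, against -2.91 for Rap1gap2 (minus marks db/db lower).

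In all, 9 of the 15 rises and 9 of the 15 falls had a gap wider than the range within either group. All 30 had an unadjusted p under 0.05 in edgeR's test with shared names as the unit, but after adjustment only AA465934 was called (edgeR adjusted p of 0.036 to 0.48 among the rises and 0.22 to 0.46 among the falls). The choice favours wide gaps and low p-values, because the 30 were called genes ranked by gap in these same values. These counts are therefore no separate support for the genes. Of the 15 rises 4 lie on chromosome 4, which carries Lepr, and none of the 15 falls does. Chromosome 4 holds 1203 of the 19700 genes tested and 20 of the 221 with a gap of at least 2-fold. Of those 4 rises, only Patj is among the 100 tested genes on each side of Lepr.

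Gene lists and families showed where the calls concentrated, and all counts below are of edgeR calls over lines, to be read against 7.41% up and 9.5% down among all genes. The genes named from each list were taken by gap among those called, so separation of their lines follows from the choice. The strongest excess of falls was in the X-linked Xlr family of lymphocyte-regulated and germ-cell genes. Of 10 tested members 8 fell and 0 rose, with a median log2 of -1.98 against -0.00 over all genes tested. Xlr3c was at 16.4, 17.1, 5.85 and 5.43 CPM in db/db lines and 99.3, 103, 163 and 170 CPM in control lines (-3.58 ± 0.41, edgeR adjusted p = 0.00065), and Xlr5c at 5.19 to 21 CPM in db/db lines and 52.9 to 102 CPM in control lines. Every db7 line lay below every db5 line in Xlr3c, Xlr4c and Xlr5c. Members of this family are near copies, so the division of reads between them is uncertain, and 3 of 10 were called without both B1 lines and 4 without either B1 line alone.

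Fibroblast markers fell in 13 of 19 tested genes and rose in 0, with a median of -0.77. Col5a1, a fibrillar collagen chain, was at 37.2, 34.8, 36.1 and 37.3 CPM in db/db lines and 56.2, 63.6, 69.9 and 68.9 CPM in control lines (log2 -0.83 ± 0.07, edgeR adjusted p = 0.00015). The matrix protein Fbln2 was at 42.3 to 47.7 CPM in db/db lines and 64.6 to 77.1 CPM in control lines (-0.68 ± 0.08). The summed level of the list was 1188 to 1424 CPM in db/db lines and 1529 to 1642 CPM in control lines, and the fibroblast genes Twist2, Dcn and Lum were under 1 CPM in every line. In such bulk samples fewer cells of a type and less RNA per cell cannot be told apart. The count of falls was 5 without both B1 lines, 6 to 13 when single lines were left out (6 without aB6_B1), and 14 without the second adb_db7 library.

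Serpins, inhibitors of proteases, fell in 9 of 26 tested genes and rose in 1 (median -0.60). Serpinh1, the collagen chaperone HSP47, was at 49.0, 48.6, 35.0 and 37.1 CPM in db/db lines and 94.4, 98.8, 85.3 and 83.0 CPM in control lines (log2 -1.09 ± 0.12, edgeR adjusted p = 0.0005). Serpinh1 was lower in every db/db line, beside the lower summed level of fibroblast markers. The part of that level in the falls was not tested.

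Voltage-gated ion channels fell in 12 of 46 tested genes and rose in 1, with a median of -0.41. The falls were 7 without both db7 lines, 9 without both B1 lines and 8 without aB6_B1 or bB6_B1. The median of the list was -0.41 to -0.36 in each of the 4 db/db lines relative to the control mean, against -0.02 to 0.04 in control lines. Neurotransmitter receptors fell in 9 of 41 and rose in 2 (median -0.35), axon guidance genes fell in 18 of 77 and rose in 5 (median -0.06), and synapse proteins fell in 8 of 52 and rose in 5 (median -0.16). Potassium channels, some of which are counted among the voltage-gated channels too, fell in 10 of 59 and rose in 0, with 3 falls without aB6_B1 or without bB6_B1. Axon guidance genes had 13 falls and 3 rises without aB6_B1 and without bB6_B1, and 9 falls and 6 rises without both B1 lines. Synapse proteins had 2 rises without adb_db7, bdb_db7, aB6_B1 or bB6_B1, and 5 falls without aB6_B1, and 9 falls and 3 rises when scaled by library size alone.

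Among the named receptor and synapse genes, Dlgap3, a scaffold of the postsynaptic density, was the one at a substantial level. It was at 51.2, 46.2, 48.1 and 41.5 CPM in db/db lines and 99.3, 103, 129 and 120 CPM in control lines (log2 -1.27 ± 0.10, edgeR adjusted p = 6.3e-05), so that every db/db line had less than every control line. The metabotropic glutamate receptor Grm8 was at 0.282 to 0.371 CPM in db/db lines and 0.951 to 1.78 CPM in control lines (-1.98 ± 0.25). Axon guidance moved in both directions. Ntn1, the secreted cue netrin-1, rose and was at 143, 144, 113 and 114 CPM in db/db lines and 54.8, 49.9, 59.9 and 56.8 CPM in control lines (1.21 ± 0.10, edgeR adjusted p = 9.5e-05). Plxnb2, a semaphorin receptor, fell and was at 125, 120, 124 and 127 CPM in db/db lines and 223, 226, 206 and 201 CPM in control lines (-0.79 ± 0.05, edgeR adjusted p = 2.6e-05). The groups were clear of each other in Ntn1 and in Plxnb2, as the choice by gap requires.

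Of the neuron markers, 3 rose and 3 fell of 14 (median log2 -0.38). Their summed level, without TMM scaling, was 595 to 602 CPM in db/db lines and 565 to 579 CPM in control lines. The median of the list relative to the control mean was -0.46 to -0.23 in db/db lines and -0.21 to 0.23 in control lines. Beside Ina, Elavl4, an RNA-binding protein of neurons, rose (log2 1.11 ± 0.18), while the growth cone gene Gap43 fell to 0.438 to 0.943 CPM in db/db lines, against 1.87 to 3.09 CPM in control lines (-1.90 ± 0.25). Rbfox3, Snap25, Dcx and Syt1, which define neurons, were under 1 CPM in all 8 lines. The pluripotent markers summed to 8930 to 9107 CPM in db/db lines and 9007 to 9212 CPM in control lines. Oct4, Sox2 and Klf4, which the vector also carried, are in that list, so the sum alone does not settle the labelled cell type. Of these 20 markers 2 rose and 4 fell, among them Fbxo15, a target of Oct4, at 82.9 to 88.2 CPM in db/db lines and 124 to 131 CPM in control lines (-0.58 ± 0.04).

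Hox genes, which pattern the body axis, fell in 6 of 27 and rose in 0 (median -0.68), with Hoxd13 at 0.579 to 0.949 CPM in db/db lines and 1.44 to 1.77 CPM in control lines. Clustered protocadherins, adhesion proteins that give neurons their identity, fell in 9 of 24 and rose in 0 (median -0.93), with levels under 1 CPM for the 3 with the widest gaps, Pcdhga3, Pcdhgb1 and Pcdhgb5. Exons shared within these clusters leave the values of single members uncertain. Of 24 clustered protocadherins 1 fell without both B1 lines and 2 without aB6_B1, and of 27 Hox genes 2 fell without bB6_A5 or without aB6_B1. Without both db5 lines 3 clustered protocadherins fell, and without both db7 lines 2 Hox genes did. The median of the protocadherin list relative to the control mean was -0.98, -0.97, -0.50 and -0.47 in db/db lines and -0.38, -0.03, 0.32 and 0.23 in control lines. The fibroblast markers had medians of -1.01, -0.97, -0.53 and -0.49 in db/db lines and -0.28, -0.02, 0.15 and 0.12 in control lines, so both lists were lowest in db5 lines. The part of the fibroblast markers in the falls of protocadherins was not tested. Notch and Hedgehog genes fell in 9 of 40 and rose in 5, and primitive endoderm markers fell in 4 of 13 and rose in 2. Of the Notch and Hedgehog genes 6 fell without aB6_B1 and 4 without both B1 lines, and 3 rose without bB6_A5, aB6_B1 or bB6_B1. Of the primitive endoderm markers 2 fell without bdb_db5, aB6_B1 or bB6_B1 and also without both db7 or both B1 lines, and 1 rose without any single line of db5, A5 or B1. Gata6, a regulator of primitive endoderm, was at 0.580, 0.603, 0.423 and 0.313 CPM in db/db lines and 1.02, 1.53, 2.57 and 2.59 CPM in control lines (log2 -2.01 ± 0.33).

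**Figure D3:**
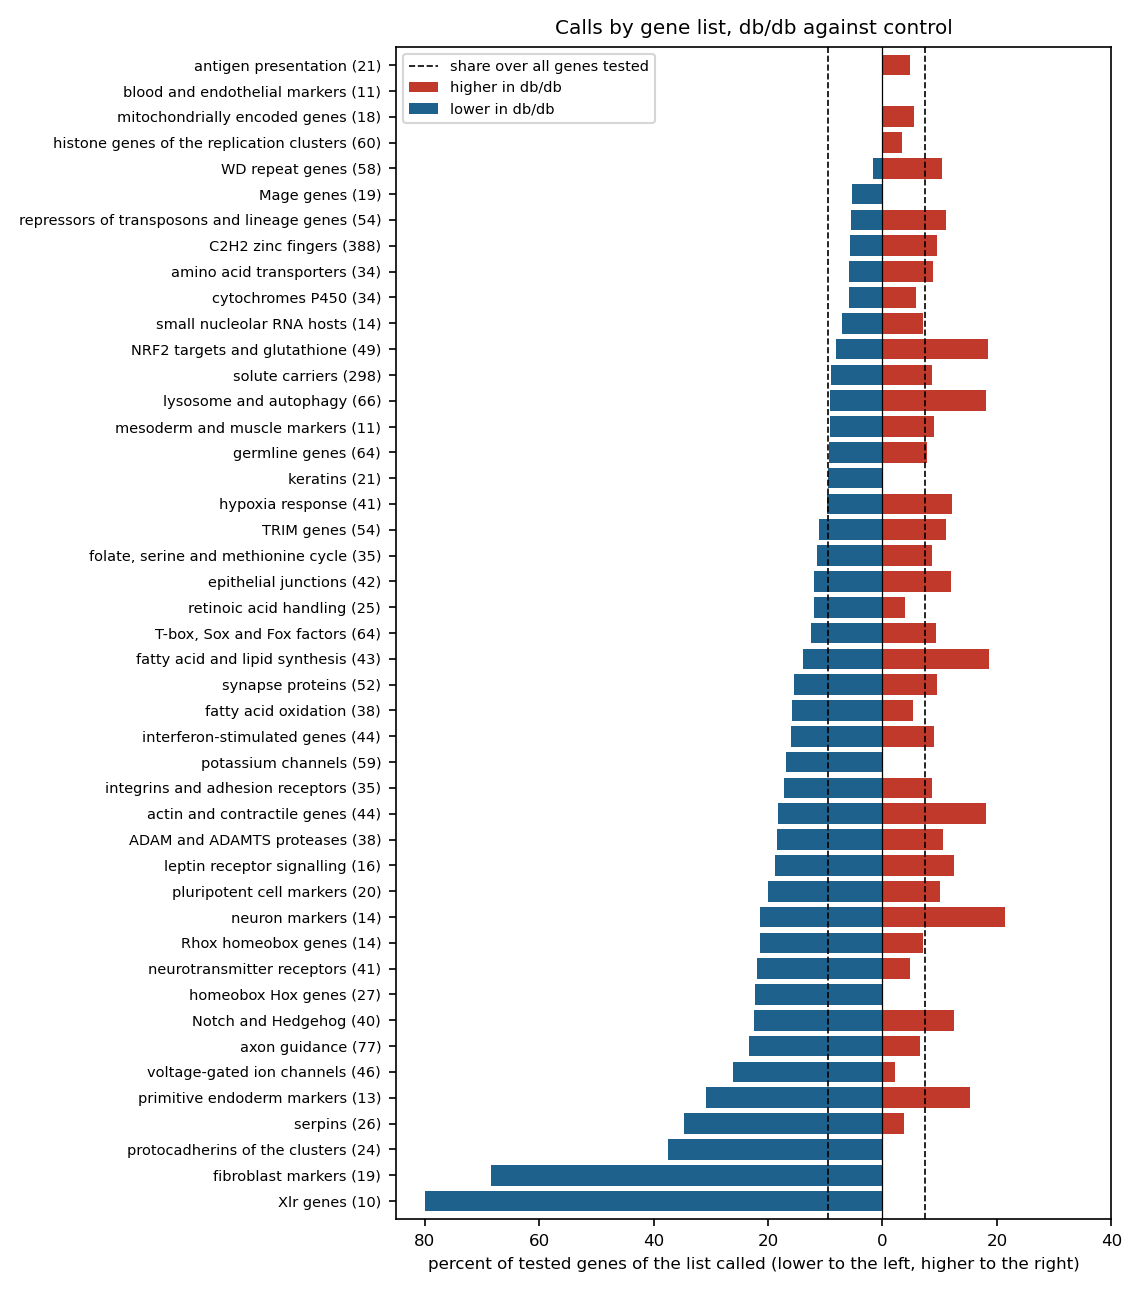
Percent of tested genes of each list or family that fell (blue, to the left) or rose (red, to the right) in db/db lines against control lines, with the number tested in brackets. The dashed lines mark the shares over all genes, 9.5% down and 7.41% up, and bars of Xlr genes and fibroblast markers reach farthest to the left.

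Falls outnumbered rises among called genes of low level. Of 6337 genes with a mean under 1 CPM, 169 rose and 584 fell (11.9% called, median log2 -0.11). The share that fell was close to the 9.5% over all genes, and the share that rose was below 7.41%. Of 4292 genes from 1 to 10 CPM, 287 rose and 620 fell (21.1% called, median -0.07). Of 2295 genes over 100 CPM, 275 rose and 100 fell (median 0.05). Genes under 1 CPM were 32.2% of all tested, and 25 of 46 voltage-gated channels, 23 of 41 neurotransmitter receptors, 24 of 27 Hox genes and 19 of 24 clustered protocadherins. The part of level in the counts of these lists was not tested.

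NRF2 targets and glutathione enzymes rose in 9 of 49 and fell in 4 (median 0.18), with 5 rises without adb_db7, aB6_B1 or bB6_B1. Hmox1, which degrades heme, was at 118, 116, 163 and 146 CPM in db/db lines and 73.3, 70.5, 64.4 and 65.0 CPM in control lines (log2 0.99 ± 0.11, edgeR adjusted p = 0.00048). Prdx4, a peroxiredoxin of the endoplasmic reticulum encoded on the X chromosome, was at 72.6 to 84.0 CPM in db/db lines and 42.0 to 46.3 CPM in control lines (0.80 ± 0.06). Both genes were higher in every db/db line. The median of the list relative to the control mean was 0.15 to 0.23 in db/db lines, 0.13 and 0.15 in A5 control lines and -0.17 to -0.16 in B1 control lines, so the A5 lines lay near the db/db lines.

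Lysosome and autophagy genes rose in 12 of 66 and fell in 6 (median 0.07), and 11 rose and 9 fell when scaled by library size alone. The lysosomal membrane protein Scarb2, a receptor for beta-glucocerebrosidase, was at 165, 168, 183 and 201 CPM in db/db lines and 114, 111, 59.4 and 59.9 CPM in control lines (log2 1.05 ± 0.22, edgeR adjusted p = 0.011), and its call ended without both db7 lines. Tfeb, the transcription factor that drives lysosomal genes, fell and was at 29.1, 27.1, 28.5 and 24.2 CPM in db/db lines and 41.6, 44.0, 53.2 and 48.2 CPM in control lines (-0.78 ± 0.09, edgeR adjusted p = 0.00064). The groups did not overlap in Tfeb or in Scarb2, as the choice by gap requires.

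Fatty acid and lipid synthesis rose in 8 of 43 genes and fell in 6 (median 0.03), and fatty acid oxidation fell in 6 of 38 and rose in 2 (median -0.06). Lipid synthesis had 5 rises without aB6_B1 or without bB6_B1, and oxidation had 1 fall without bB6_B1, and 7 falls and 0 rises when scaled by library size alone. Elovl6, which elongates saturated fatty acids, was at 323, 328, 458 and 537 CPM in db/db lines and 240, 234, 187 and 192 CPM in control lines (log2 0.95 ± 0.16, edgeR adjusted p = 0.0052). The desaturase Scd2 was at 390 to 395 CPM in db/db lines and 274 to 295 CPM in control lines (0.48 ± 0.04, edgeR adjusted p = 0.00014). Cpt1a, which controls entry of fatty acids into mitochondria, fell and was at 62.2, 62.1, 51.4 and 58.0 CPM in db/db lines and 79.8, 74.9, 104 and 103 CPM in control lines (-0.63 ± 0.11, edgeR adjusted p = 0.0064). Scd2 was nearly level among db/db lines, while Elovl6, on chromosome 3, was higher in db7 than in db5 lines.

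Of 16 genes of leptin receptor signalling 2 rose and 3 fell. There were 1 rise and 1 fall without both B1 lines, and 1 fall without aB6_B1. With shared names as the unit, 1 rise and 0 falls had an unadjusted p under 0.05 in edgeR's test. Lepr itself was at 0.368, 0.371, 0.186 and 0.297 CPM in db/db lines and 0.348, 0.460, 0.431 and 0.456 CPM in control lines, and did not pass the test (log2 -0.47 ± 0.24, edgeR adjusted p = 0.2). Lines of the groups overlapped. The db allele acts on splicing, so a total per gene is no check of the labels. Stat3 was at 63.0, 62.2, 59.4 and 59.8 CPM in db/db lines and 71.6, 70.8, 72.4 and 71.6 CPM in control lines (-0.23 ± 0.05). Its single libraries overlapped between the groups, and its unadjusted p was 0.11 in edgeR's test over shared names. Stat5b, another STAT of cytokine receptors, was at 3.32 to 4.41 CPM in db/db lines and 4.82 to 6.29 CPM in control lines (-0.50 ± 0.12, edgeR adjusted p = 0.023), and its call ended without either B1 line, and without both B1 or both db5 lines. Irs2, an adaptor shared with the insulin receptor, rose and was at 39.0, 38.5, 56.9 and 56.0 CPM in db/db lines and 34.3, 32.9, 29.2 and 28.2 CPM in control lines (0.61 ± 0.14, edgeR adjusted p = 0.017), and its call ended without both B1 lines.

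Genes of actin, adhesion and the cell surface moved in both directions. Actin and contractile genes rose in 8 of 44 and fell in 8, with 3 rises without aB6_B1 or without bB6_B1, and 5 rises and 8 falls when scaled by library size alone. Tagln2, an actin-binding protein of the transgelin family, was at 49.3, 45.8, 43.8 and 37.3 CPM in db/db lines and 89.8, 87.1, 115 and 114 CPM in control lines (log2 -1.20 ± 0.11, edgeR adjusted p = 0.00024). All db/db lines were below all control lines, the opposite of the actin monomer-binding Tmsb4x. Integrins and adhesion receptors fell in 6 of 35 and rose in 3, with 3 falls without adb_db7 and 3 without both B1 lines. Itga1, the collagen-binding alpha 1 integrin, rose at a low level, 0.634 to 1.31 CPM in db/db lines and 0.163 to 0.248 CPM in control lines (2.03 ± 0.29). ADAM and ADAMTS proteases fell in 7 of 38 and rose in 4, with 3 falls without bdb_db5 or without aB6_B1. The rises included Adam19, a sheddase of cell surface proteins, at 34.2 to 39.4 CPM in db/db lines and 17 to 22.3 CPM in control lines (0.93 ± 0.10).

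Germline genes rose in 5 of 64 and fell in 6, close to the shares over all genes. Tex15, which is needed for silencing of transposons in male germ cells, was at 10.6, 11.1, 10.6 and 14.4 CPM in db/db lines and 5.78, 5.47, 5.28 and 5.06 CPM in control lines (log2 1.11 ± 0.12, edgeR adjusted p = 0.00046). Smc1b, the meiotic cohesin subunit, was at 7.36, 8.32, 3.37 and 4.21 CPM in db/db lines and 17.6, 15.8, 38.3 and 38.2 CPM in control lines (-2.24 ± 0.38, edgeR adjusted p = 0.0046). Tex15 was even among control lines, while Smc1b, on chromosome 15, differed between the names of each group. Interferon-stimulated genes, Wdfy1 among them, rose in 4 of 44 and fell in 7. Oas1a, which senses double-stranded RNA, was at 10.2, 9.11, 13.4 and 12.8 CPM in db/db lines and 3.9, 4.43, 3.85 and 4.52 CPM in control lines (1.44 ± 0.14, edgeR adjusted p = 0.00025), and reads may be shared with near copies in its family.

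Zinc fingers of the C2H2 type, most of them DNA-binding proteins, rose in 37 of 388 and fell in 22. The split was 29 rises and 29 falls when scaled by library size alone, 88 and 34 without both db5 lines, and 51 and 42 without both A5 lines, and 13 fell without bB6_B1. Zfp839 was at 11.4, 11.6, 12.4 and 12.7 CPM in db/db lines and 5.71, 5.21, 5.99 and 6.06 CPM in control lines (log2 1.07 ± 0.08, edgeR adjusted p = 7.8e-05). Zfp948 was at 2.69 to 2.91 CPM in db/db lines and 6.56 to 8.31 CPM in control lines (-1.43 ± 0.11), and both genes were tight within the groups. WD repeat genes rose in 6 of 58 and fell in 1, with 3 rises without aB6_B1, and repressors of transposons and lineage genes rose in 6 of 54 and fell in 3, with 3 of each when scaled by library size alone. Solute carriers rose in 26 of 298 and fell in 27, with 13 rises and 16 falls without aB6_B1, and 19 rises and 36 falls when scaled by library size alone. Slc7a3, an importer of cationic amino acids encoded on the X chromosome, was at 931, 955, 965 and 946 CPM in db/db lines and 769, 792, 589 and 592 CPM in control lines (0.47 ± 0.10, edgeR adjusted p = 0.012). The noncoding host of small nucleolar RNAs Snhg11 rose to 17.1, 18.2, 27.1 and 30.1 CPM in db/db lines, against 8.79, 8.23, 7.92 and 8.48 CPM in control lines (1.47 ± 0.18, edgeR adjusted p = 0.00079).

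**Figure D4:**
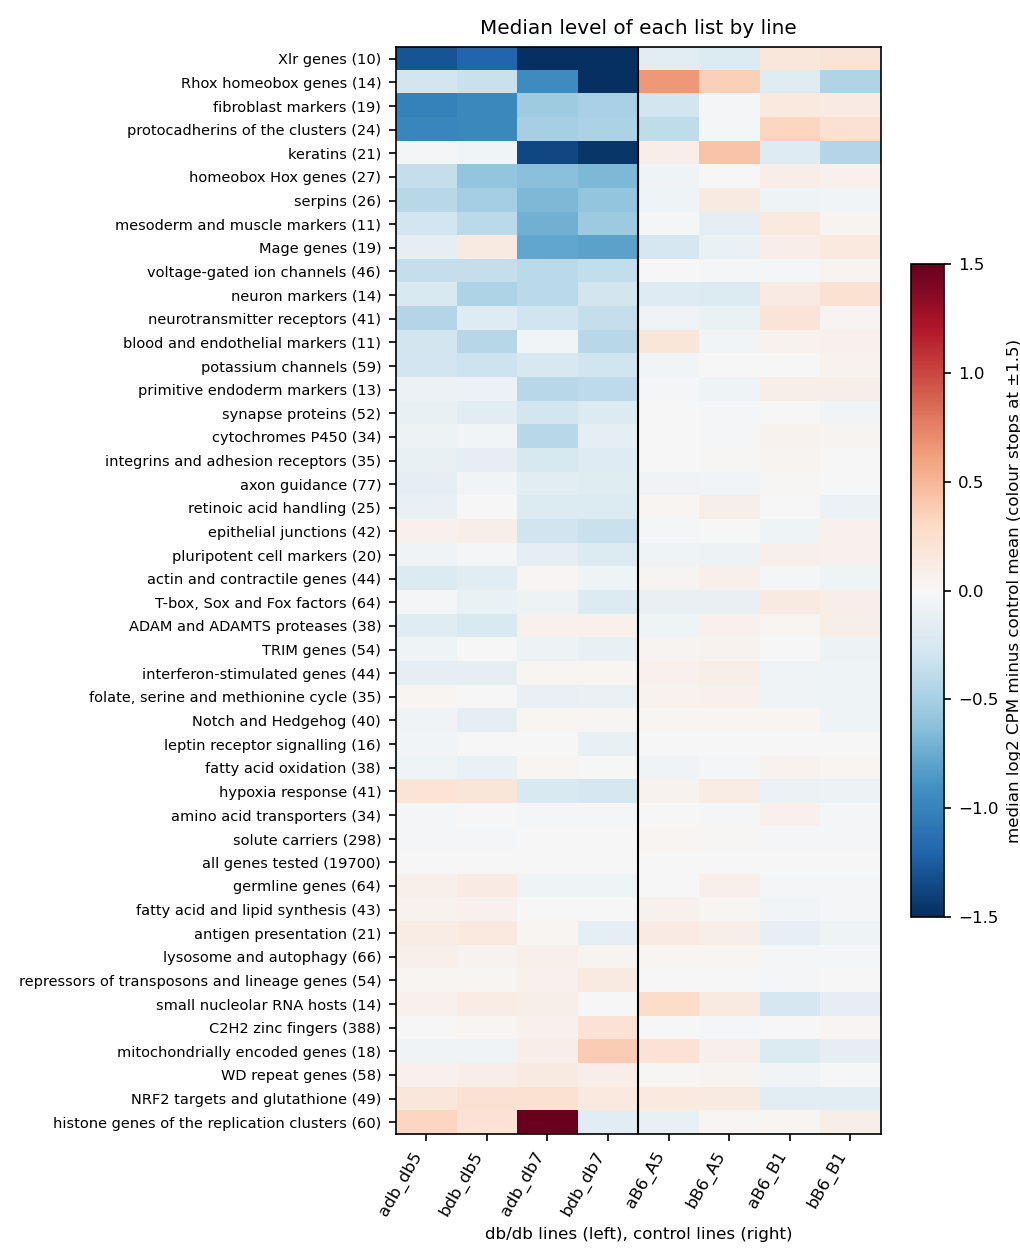
Median log2 CPM of each list or family in every line, relative to the mean of control lines, with db/db lines in the left columns and control lines in the right columns. Voltage-gated ion channels, Hox genes and serpins are low in all db/db lines, whereas keratins are low in db7 lines and the histone row is high in adb_db7.

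Other families moved with a name or a library rather than with the group. Keratins had a list median of -0.02 and -0.04 in db5 lines and of -1.37 and -1.46 in db7 lines, relative to the control mean, and 2 of 21 fell. Hypoxia genes had medians of 0.20 and 0.18 in db5 lines and of -0.23 and -0.25 in db7 lines, with 5 rises and 4 falls among 41 entries (Aldoa has 2 identifiers). Without both db7 lines 17 hypoxia genes rose, and without both db5 lines 15 fell. Replication-dependent histone genes had a median log2 change of 0.99, yet 2 of 60 rose and 0 fell. Their summed level was 128 CPM in the second adb_db7 library, against 21.5 to 41.3 CPM in the other db/db libraries and 30.0 to 34.7 CPM in control libraries. That library also carried 4.81% of its counts on Gm42418, a transcript over ribosomal RNA sequence; the share was 0.0688% to 0.514% in the other 14 libraries. Without that library the histone median was 0.13, and 2 rose and 0 fell.

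Of the 100 tested genes on each side of Lepr (chromosome 4, 70248636 to 116097043), 50 of 200 were called (25%), 14 up and 36 down, against 16.9% over all genes. With shared names as the unit, 32 of 200 (16%) had an unadjusted p under 0.05 in edgeR's test, against 10% over all genes, and 0 were called after adjustment. Of 84 windows of 200 neighbouring tested genes along the genome, 2 held 50 calls or more (median 32.5, range 17 to 65) and 6 held 32 or more genes with such a p. Patj, which starts 3321.6 kb before Lepr, was at 12.8, 13, 16.1 and 16.4 CPM in db/db lines and 6.18, 5.57, 2.73 and 2.48 CPM in control lines. Cachd1, a regulator of voltage-gated calcium channels whose start is 940.7 kb before that of Lepr, was at 20.2, 18.8, 24.1 and 24.7 CPM in db/db lines and 9.48, 7.99, 3.75 and 4.06 CPM in control lines (log2 1.81 ± 0.28, edgeR adjusted p = 0.0029). In both genes A5 control lines stood nearer to the db/db lines than B1 lines did. Itgb3bp, which encodes the centromere protein CENP-R, was at 2.79 to 3.16 CPM in db/db lines and 1.15 to 1.49 CPM in control lines (1.19 ± 0.12), and Elavl4 also rose. The falls were in Lexm, at 0.297 to 2.28 CPM in db/db lines and 5.15 to 7.1 CPM in control lines, in Tusc1, in Pgm1, which interconverts glucose phosphates, at 8.82 to 14.1 CPM in db/db lines and 23 to 35.5 CPM in control lines (-1.31 ± 0.19), and in the cell cycle inhibitor Cdkn2b at 1.47 to 1.94 CPM in db/db lines and 3.05 to 3.82 CPM in control lines (-1.03 ± 0.13). Lexm lost its call without both A5 or both B1 lines.

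**Figure D5:**
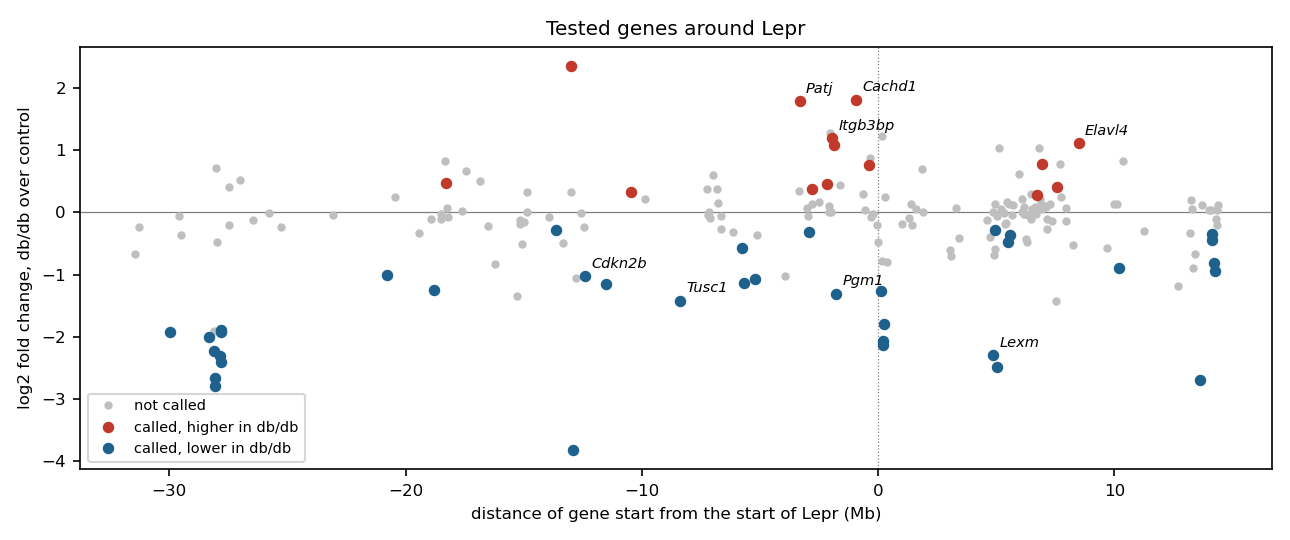
Log2 fold change of db/db over control lines for the 100 tested genes on each side of Lepr, against distance from the start of Lepr in Mb. Red and blue points are the 14 called rises and 36 called falls, grey points did not pass, and named genes are labelled.

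On the X chromosome 25.7% of 754 tested genes were called, 114 up and 80 down, and on chromosome 3 24.9% of 932 were called, 165 up and 67 down. On chromosome 6, 26 rose and 138 fell, and on chromosome 15, 14 rose and 104 fell. The median log2 change was 0.25 on chromosome 3, -0.16 on chromosome 6 and -0.21 on chromosome 15, and -0.05 to 0.07 on the X chromosome and the other autosomes. Outside chromosomes 3, 6 and 15 the share called was 16.5%. Of 74 genes with a gap of at least 2-fold and at least 5 CPM, 31 were nearer the db/db mean in both corrected lines, 38 were nearer the control mean in both, and 5 differed between the corrected lines.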

How the data were processed

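Estimated counts per gene were deposited by the authors for 19 libraries of induced pluripotent stem cells. Libraries were made with a stranded TruSeq mRNA kit, per the labels' protocols, and kallisto and GRCm38 come from the submitters' processing notes, without a version or index. Of 52143 identifiers, 51336 matched GENCODE M21 and carried 99.38% of counts. Such counts share out reads among similar transcripts. Counts were rounded and summed per line. All 10 lines entered 1 fit with edgeR 4.0.16 in R 4.3.3 (filterByExpr, TMM, quasi-likelihood F-test, Benjamini-Hochberg threshold of 0.05). No label says that lines of a shared name are separate cultures. Pseudogenes were aligned to coding transcripts with blastn 2.17.0.

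The genes and lists described were chosen with earlier results of these data known. Genes were named by rule: the 15 rises and 15 falls with the widest gap among called genes with at least 5 CPM in the higher group, without predicted genes and pseudogenes, up to 3 called genes per list by gap, and 8 near Lepr. The fit was tested on simulated data. Alternatives were other scalings and filters, DESeq2 1.42.0, shared names or libraries as the unit, and lines left out. Some genes that this rule names are not reported here.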

Additional observations from a re-analysis of the deposited data

Results flagged for a closer look

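The level of AA465934 in line adb_db5 stood apart from the other 3 db/db lines. It was 9.81 CPM there and 11.3, 11.3 and 11.4 CPM in the others, and its gap to the nearest line, on the log2 scale, was 0.913 of the range of the group, above Dixon's critical value for 4 samples. The difference is small beside the 0.561 to 0.943 CPM of control lines. In 76 groups checked, 1 was marked in this way, and chance marks about 1 in 20.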

How the results depend on the processing

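No gene named by the rule changed direction under any alternative run. Bex4, which the rule did not name, went from log2 0.20 alone to -0.07 with its pseudogenes added and passed in neither form. Counts of called genes, 3332 in all (1460 up, 1872 down, 50 near Lepr), moved with the unit. With shared names as the unit they were 6 (2 up, 4 down, 0 near Lepr), and 147 of 149 named genes lost their call. With each library as a sample they were 7399 (3540 up, 3859 down, 91 near Lepr). Adding the duplicate number as a replicate block gave 6524 (3056 up, 3468 down, 80 near Lepr). Differences between duplicates were compared between db/db and control lines in 12 pairs. Their Pearson correlation was -0.0501 to 0.613 and their rank correlation was 0.14 to 0.546. Whether the duplicate number marks a shared batch was not tested. DESeq2 called 4730 genes, 2294 of them up. Scaling by library size alone changed the split to 1085 up and 2156 down. Leaving out single lines gave 2042 to 3215 calls (851 to 1400 up, 1191 to 1864 down), with 2042 without aB6_B1, 2067 without bB6_B1, and 934 up without adb_db7. Without both db5 lines 5428 were called (2541 up, 2887 down) and without both A5 lines 5383 (2498 up, 2885 down). Requiring every library to clear the other group left 2216 of 4595 separated genes. Within 50 genes of Lepr on each side, 27 of 100 were called. Without the second adb_db7 library 3436 genes were called. The causes of these shifts were not tested, beyond what the number of samples in each fit sets.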
